A study of Homo sapiens with 10 samples.

Results

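The genes described here are 57 genes of the TNF, NF-kappaB and immediate early response, chosen by name from the 31015 genes that had at least one 3′ end interval in the read tables. They comprise 5 NF-kappaB subunits, 4 genes of the IkappaB inhibitors and BCL3, 12 genes of TNF receptor signalling and cell survival, 10 cytokine, chemokine and adhesion genes, 6 immediate early transcription factors, 7 IER family and other early response genes, 5 MAP kinase phosphatases, 4 genes of the ZFP36 family with SOCS3, and 4 other induced enzymes and receptors.

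The experiment used 22RV1, an established human cell line from castration-resistant prostate cancer that grows without androgen. Cells were left untreated (the labels give no treatment for the control and name no vehicle) or received one of 4 treatments for 4 h: 20 µM SRPIN340, an inhibitor of the splicing factor kinase SRPK1; 50 µM Endovion, which the study used as an SRPK1 inhibitor; THZ531, a covalent inhibitor of the transcription elongation kinase CDK12 and of its relative CDK13; or THZ531 together with Endovion. The dose of THZ531 was given as 100 nM in the study's methods and as 150 nM in the series' design text. Each of the 5 groups had 2 libraries, all from the one cell line, and the combination of SRPIN340 with THZ531 was not analysed here. During the last 10 min the cells were given 4-thiouridine, a uridine analogue that new RNA takes up and that reads as C after alkylation (SLAM-seq), so a read with a T-to-C conversion (a T>C read) counts as nascent RNA and all reads together count as total RNA.

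TNF binds its receptor and, through adaptor proteins and the IkappaB kinase, frees the NF-kappaB dimers from the IkappaB inhibitors. The dimers then switch on chemokines, survival genes and their own inhibitors, among them NFKBIA and TNFAIP3, which end the signal. Immediate early genes such as EGR1 and the IER family respond to growth factors and stress within minutes and need no new protein. Most are short, and many of their mRNAs carry AU-rich elements that the ZFP36 proteins bind to start decay, while the DUSP phosphatases switch off the MAP kinases that drive the response.

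Each library held between 19315560 and 30047897 reads on genes, of which between 1011598 and 1576121 were T>C reads, or 5.04% to 5.70%. No library without 4-thiouridine was among the 10 libraries, so the T>C reads that arise without label were not measured. The cells showed markers of prostate luminal epithelium, with KRT18 at 348 to 472 and EPCAM at 102 to 165 RPM (reads, or T>C reads for nascent RNA, per 1e6 on genes after TMM scaling) over the 10 libraries, although KLK3 was low at 2.63 to 8.09. Of the immune, stromal and endothelial markers reported here, CD3E, COL1A2 and VWF had 0 reads in every library, ACTA2 and COL1A1 had between 1.29 and 3.51 RPM, and PTPRC, CD14, CD68, LYZ, DCN and PECAM1 had at most 0.965.

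Of the 57 genes, 33 had enough T>C reads to be tested in nascent RNA and 45 had enough reads to be tested in total RNA. The filter on low counts can keep a gene through the one group where it is high, so counts over the tested genes describe those genes and not the list. The chemokine and cytokine branch had few or no reads in every group. None of its 10 genes could be tested: IL1A, IL1B, IL6, CXCL1 and CXCL3 had 0 reads over all 10 libraries, and CXCL2 had 1 read, CCL20 2, LIF 8, CXCL8 20 and ICAM1 30. With the 10 libraries pooled, 0 reads allow at most 0.0123 RPM, and the limit for a single group is higher. CXCL1, CXCL2 and CXCL3 are near copies of each other, so their reads may have been lost between them. That limit may therefore not hold for CXCL1 and CXCL3. With 2 libraries a group, no change in these genes was detectable at this depth. SIK1, a kinase induced by cAMP, had 6 reads, and it too has a near-identical copy. IER3 also had 0 reads, but it lies in the MHC region of chromosome 6, where 118 of 132 protein-coding genes had no read, TUBB among them, against 141 of 852 on the rest of the chromosome. The 0 of IER3 therefore carries no information on its expression.

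THZ531 raised nascent RNA of 5 of the 33 tested genes and lowered none (edgeR quasi-likelihood test, Benjamini-Hochberg adjusted p under 0.05 over all 9946 genes tested). Across all genes tested the same test called 3.86% higher and 3.6% lower. The 5 genes were IER5L, ZFP36L1, IER5, IER2 and BCL10. The median change of the 33 genes was 0.30 on the log2 scale, against -0.02 for all genes, and 23 of the 33 lay above 0. The count was 3 without either control library or THZ531 replicate 1, and 2 without THZ531 replicate 2. Of the genes not called, TNFAIP8 was lower at an unadjusted p under 0.05 (-1.48 ± 0.68).

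IER5L, an intronless gene of the IER family (chr9:129175552-129178261, minus strand, hg38), had the smallest p. Its T>C reads numbered 616 and 375 in the control libraries, 1115 and 823 with THZ531, 551 and 590 with SRPIN340, 413 and 335 with Endovion, and 440 and 441 with the combination. In RPM this was 396 and 301 in the control and 726 and 837 with THZ531. Both THZ531 libraries stood above all 8 others, and the change was 1.16 ± 0.16 (log2, SE) with an adjusted p of 5.78e-07 by edgeR. Total RNA of IER5L rose with THZ531 as well, and its T>C share of reads was not called as changed. That share was 24.1% over the 10 libraries summed, at 1.10 conversions per T>C read (1.06 to 1.16 in single libraries). How many of these T>C reads arose without label was not measured. Whether synthesis of IER5L rose apart from its total RNA was therefore not shown. ZFP36L1, which binds AU-rich elements and promotes mRNA decay (chr14:68787660-68796253, minus strand), had 364 and 274 T>C reads in the control, 658 and 416 with THZ531, 418 and 455 with SRPIN340, 269 and 255 with Endovion and 341 and 346 with the combination. The control and THZ531 libraries were at 234 and 220 and at 428 and 423 RPM. Again the 2 THZ531 libraries were the highest of the 10 in RPM, since the others reached at most 340 (0.91 ± 0.17, adjusted p = 0.000152 by edgeR). These 2 calls held under every alternative setting and with each library left out in turn.

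The other 3 calls with THZ531 were less secure. IER5, an early gene of the same family that regulates heat shock and phosphatase pathways (chr1:181088700-181092900, plus strand), had 196 and 211 T>C reads in the control, 292 and 273 with THZ531, 333 and 231 with the combination, 169 and 206 with SRPIN340 and 179 and 152 with Endovion (0.66 ± 0.20 with THZ531, adjusted p = 0.0304 by edgeR). In RPM, every library with THZ531, alone or combined, was above the 6 without it. The call with THZ531 was lost without control replicate 1 or THZ531 replicate 2, with DESeq2, with only the groups compared in the fit and with all intervals of a gene summed. IER2, a short nuclear early response gene, had 36 and 37 T>C reads in the control and 91 and 59 with THZ531, which is 23.2 and 29.7 against 59.2 and 60.0 RPM (1.18 ± 0.36, adjusted p = 0.0305). SRPIN340 gave 38 and 42 reads, Endovion 39 and 33 and the combination 60 and 33, and the 2 THZ531 libraries were the highest in RPM. Its call was lost when any of the 4 libraries compared was left out and with all intervals summed.

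BCL10, an adaptor that links receptors to the IkappaB kinase (chr1:85265776-85276632, minus strand), was raised by Endovion as well as by THZ531. Its T>C reads were 25 and 18 in the control, 31 and 44 with SRPIN340, 105 and 50 with Endovion, 56 and 35 with THZ531 and 86 and 69 with the combination. In RPM, the control libraries at 16.1 and 14.4 were the lowest of the 10, the 4 libraries with Endovion, at 48.1 to 80.6, were the highest, and the THZ531 libraries lay between at 36.4 and 35.6. The change was 1.23 ± 0.38 with THZ531 (adjusted p = 0.0351 by edgeR), a call lost when any of the 4 libraries compared was left out and in the same 3 settings as that of IER5, 2.07 ± 0.37 with Endovion (adjusted p = 0.000179), a call lost without Endovion replicate 1, and 2.19 ± 0.37 with the combination (adjusted p = 2.66e-05), a call kept in every setting.

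**Figure D1:**
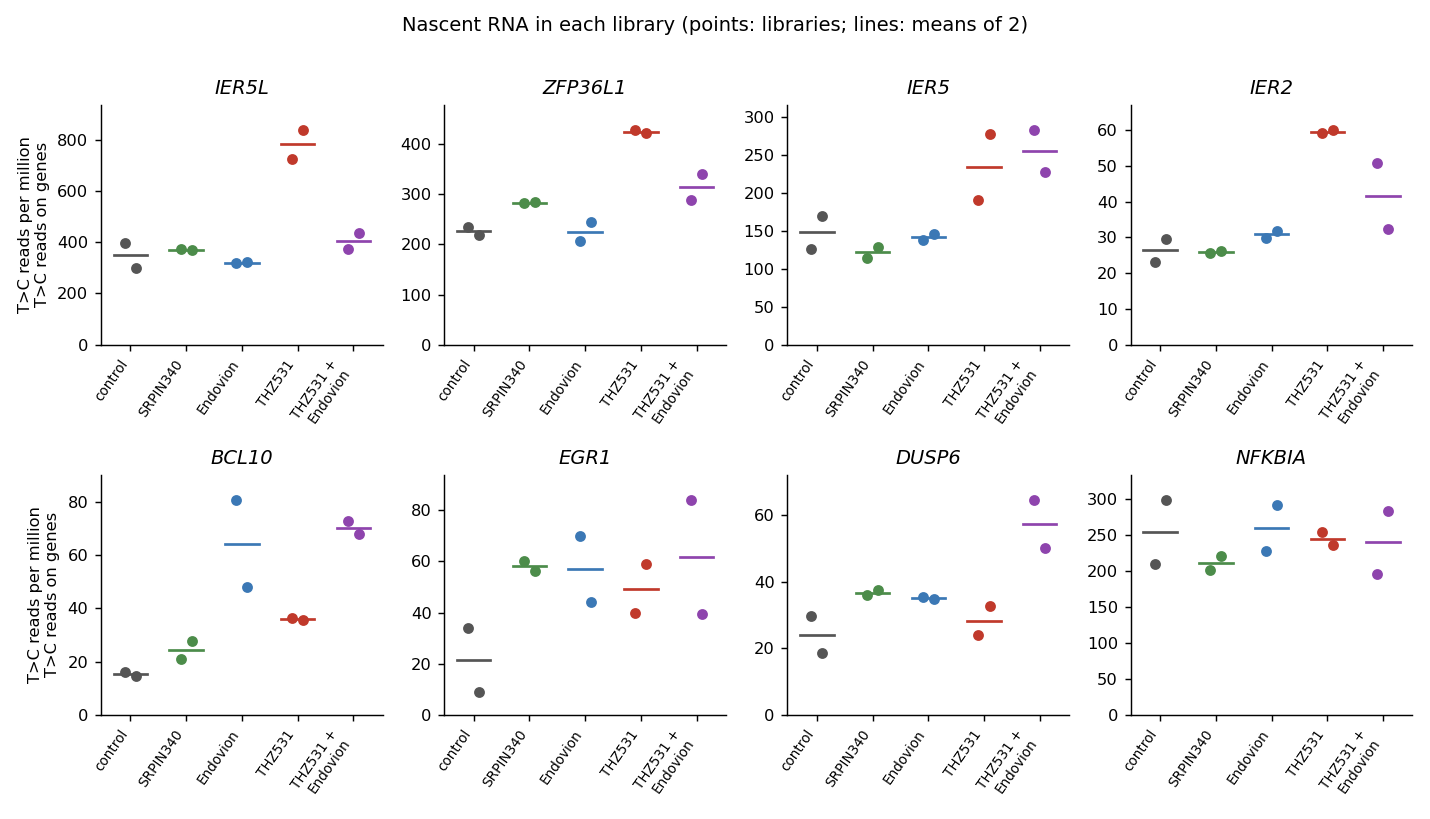
Nascent RNA of 8 genes, as T>C reads per 1e6 T>C reads on genes (RPM, vertical axes from 0), in the 2 libraries of each of the 5 groups; points are libraries and lines are their means. The THZ531 libraries were the highest for IER5L, ZFP36L1 and IER2, the libraries with Endovion were the highest for BCL10, and NFKBIA lay between 197 and 298 in all 10 libraries.

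The remaining genes tested in nascent RNA with THZ531 did not pass the adjusted threshold. Some had sizeable estimates with wide errors: GADD45B, a stress sensor of the MAP kinase pathways, had 1.34 ± 0.50, EGR1 1.13 ± 0.42 and the kinase RIPK2 1.11 ± 0.39. NFKBIA, the main IkappaB inhibitor and a direct NF-kappaB target, had ample T>C reads, between 232 and 390 a library, and an estimate of -0.04 ± 0.19. The 3 tested genes of the IkappaB group ranged from -0.66 to -0.04 and the 4 tested NF-kappaB subunits from -0.87 to 0.11, while all 5 tested IER family and early response genes (0.37 to 1.34) and all 3 tested ZFP36 genes (0.79 to 0.94) lay above 0.

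In total RNA, THZ531 raised 15 of the 45 tested genes and lowered 4 (edgeR, adjusted p under 0.05 over 14690 genes), where all genes tested gave 16.6% higher and 14.1% lower. The median of the 45 was 0.55 on the log2 scale, against -0.01 for all genes. Without THZ531 replicate 2 the count fell from 19 to 12, and across the single libraries left out it lay between 12 and 24. By role, 4 of 5 tested IER family and other early response genes rose, 3 of 6 immediate early transcription factors, 3 of 12 genes of TNF receptor signalling and survival, 2 of 4 in the ZFP36 and SOCS3 group, 2 of 5 MAP kinase phosphatases and 1 of 4 other induced enzymes and receptors. The NF-kappaB subunits and the IkappaB group held 3 of the 4 falls and no rise.

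**Figure D2:**
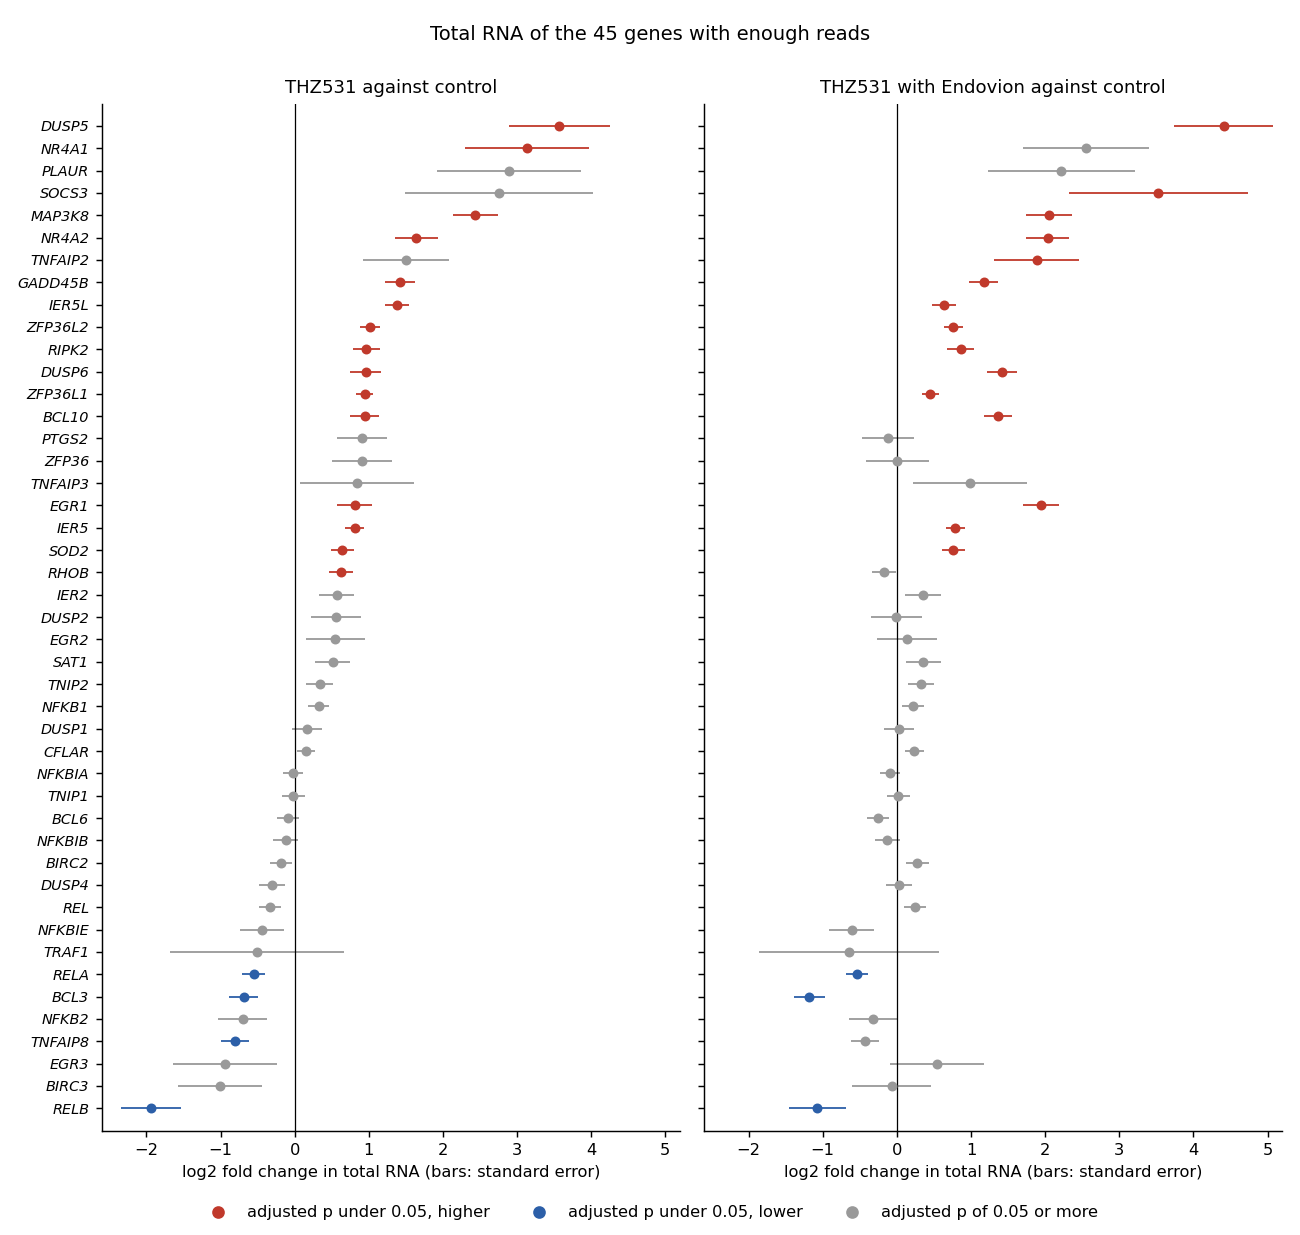
Total RNA of the 45 tested genes, as log2 fold change (horizontal axis, bars are the standard error from edgeR) with THZ531 (left) and with THZ531 and Endovion (right) against the same 2 control libraries, ordered by the change with THZ531. Red points passed an adjusted p of 0.05 as higher (15 in each panel), blue points as lower (4 and 3), and grey points did not pass.

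Among the IER family and early response genes, 4 of 5 tested rose with THZ531, where 16.6% of all genes tested rose. IER5L went from 2306 and 1237 reads in the control to 4435 and 3475 (1.38 ± 0.17 on the log2 scale, adjusted p = 5.59e-05 by edgeR), and IER5 from 2998 and 3162 to 5320 and 4167 (0.81 ± 0.13, adjusted p = 0.00037). GADD45B had 263 and 188 reads in the control, 227 and 259 with SRPIN340, 251 and 179 with Endovion, 578 and 468 with THZ531 and 521 and 306 with the combination. In RPM, its libraries with THZ531, alone or combined, ranged from 16 to 25.1 and the other 6 from 7.91 to 9.60, so the sets did not overlap. The change was 1.42 ± 0.20 (adjusted p = 0.000132 by edgeR). How many of all genes tested show such a separation was not counted. RHOB, a short-lived small GTPase, had 1098 and 745 reads in the control and 1294 and 1146 with THZ531 (0.63 ± 0.16, adjusted p = 0.00822), a call lost without control replicate 2 or THZ531 replicate 2. IER2 had 0.57 ± 0.24 and did not pass.

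The ZFP36 family rose in 2 of its 3 genes, where 16.6% of all genes tested rose with THZ531. ZFP36L1 had 6541 and 4434 reads in the control and 10673 and 7721 with THZ531 (0.94 ± 0.12, adjusted p = 5.09e-05 by edgeR). ZFP36L2, a second AU-rich element binding protein, had 1616 and 1232 in the control and 2788 and 2212 with THZ531, and its THZ531 libraries, at 103 and 119 RPM, were the highest 2 of the 10 (1.02 ± 0.13, adjusted p = 6.59e-05). ZFP36 itself was sparse, between 25 and 83 reads a library, and its 0.91 ± 0.41 did not pass. SOCS3, which blocks cytokine receptor signalling, had 3 and 0 reads in the control and 2 and 15 with THZ531, and did not pass (adjusted p = 0.112).

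The measured 3′ ends of IER5, ZFP36L1 and ZFP36L2 themselves hold the AU-rich nonamer TTATTTATT, and a window of 30 bases around it is shown for each as an example. All of these rose in total RNA with THZ531, as did SOD2, which also holds the nonamer. It lies as well in the intervals of ZFP36, DUSP1, DUSP4, BIRC3, REL, PTGS2, PLAUR and TNFAIP3, which did not pass with THZ531. The nonamer is in capitals, and each window is 5′ to 3′ on the gene's strand (hg38; for IER5 the first of 3 overlapping matches).
IER5, chr1:181092443-181092472, plus strand: gtgtcttcctTTATTTATTtatttatttaa
ZFP36L1, chr14:68788076-68788105, minus strand: aactgttggaTTATTTATTttagaaattcc
ZFP36L2, chr2:43223447-43223476, minus strand: actatttaacTTATTTATTatcttgtgaaa
The last 500 bases of the measured interval were searched on the mRNA strand. The nonamer was present in 5 of the 37 tested genes of the list with an interval of that length (13.5%), against 3.01% of the 10679 such genes among all tested. Of the 14 genes that rose with THZ531 and had such an interval, 2 held it (14.3%), a share near that of the list. The match of ZFP36L2 lies outside that window. A match describes the letters only.

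The NF-kappaB subunits and their inhibitors did not rise. RELB, the partner of p52 in the alternative pathway, had 71 and 64 reads in the control, 77 and 103 with SRPIN340, 57 and 42 with Endovion, 18 and 13 with THZ531 and 19 and 32 with the combination. In RPM, all 4 libraries with THZ531 (0.664 to 1.67) lay below the other 6 (2.08 to 3.27), and the change with THZ531 was -1.94 ± 0.40 (adjusted p = 0.00233 by edgeR). RELA, the main activating subunit, had 2153 and 2348 reads in the control and 1812 and 978 with THZ531 (-0.56 ± 0.15, adjusted p = 0.0121), and BCL3, a nuclear IkappaB protein, had 693 and 695 against 482 and 292 (-0.69 ± 0.20, adjusted p = 0.016). Both calls were lost without control replicate 2 or THZ531 replicate 2. NFKB1 had 0.32 ± 0.15, REL -0.34 ± 0.15 and NFKB2 -0.70 ± 0.33, none of which passed, and NFKBIA had 4559 and 3486 reads in the control and 4113 and 2861 with THZ531 (-0.02 ± 0.13).

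In total RNA with THZ531, all genes tested gave 16.6% higher and 14.1% lower. Among the 12 genes of TNF receptor signalling and survival, 3 rose and 1 fell, near those shares. MAP3K8, a kinase that links NF-kappaB p105 to the MAP kinases, had the steepest of these rises, from 31 and 34 reads in the control to 183 and 130 with THZ531 and 104 and 113 with the combination (2.44 ± 0.31 with THZ531, adjusted p = 5.51e-05 by edgeR). SRPIN340 gave 59 and 55 reads and Endovion 36 and 23, and in RPM the 4 libraries with THZ531 (4.56 to 6.97) did not overlap the other 6 (1.11 to 2.21). These reads did not come from the 3′ end of the full-length gene. Of its 768 reads, 758 lay in one interval of 144 bases at chr10:30439338-30439481, which ends 22.4 kb before the annotated end of MAP3K8 (chr10:30434021-30461833, plus strand). The rise therefore belongs to that internal 3′ end, and full-length MAP3K8 had 10 reads in all. RIPK2, which carries signals of the NOD receptors to NF-kappaB, went from 462 and 286 to 683 and 570 reads (0.96 ± 0.18, adjusted p = 0.00116), and BCL10 from 215 and 179 to 338 and 314 (0.94 ± 0.19, adjusted p = 0.00197), a call lost without THZ531 replicate 2.

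TNFAIP8, an inhibitor of apoptosis named for its induction by TNF, went the other way, with 450 and 317 reads in the control and 235 and 152 with THZ531 (-0.80 ± 0.19, adjusted p = 0.00512 by edgeR). TNFAIP8 spans 131 kb. Of the 6 tested genes that span over 50 kb, 1 rose and 1 fell in total RNA with THZ531. Of all genes tested of that span, 20.1% rose and 12.3% fell, so these counts were near those shares. A link of these changes with length was not tested. TNFAIP3, BIRC3 and TRAF1, textbook NF-kappaB targets, had 128, 262 and 85 reads over all 10 libraries, and their estimates with THZ531 (0.84 ± 0.77, -1.01 ± 0.57 and -0.51 ± 1.18) did not pass. For CFLAR, an inhibitor of caspase 8, only 46.4% of its reads lay within 1 kb of its annotated end, and part of the gene is overlapped by a non-coding gene. Its total RNA changed by 0.15 ± 0.13. Of the 45 tested genes, 42 had most of their reads within 1 kb of the annotated end, and the other 3 were MAP3K8, CFLAR and PLAUR.

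**Figure D3:**
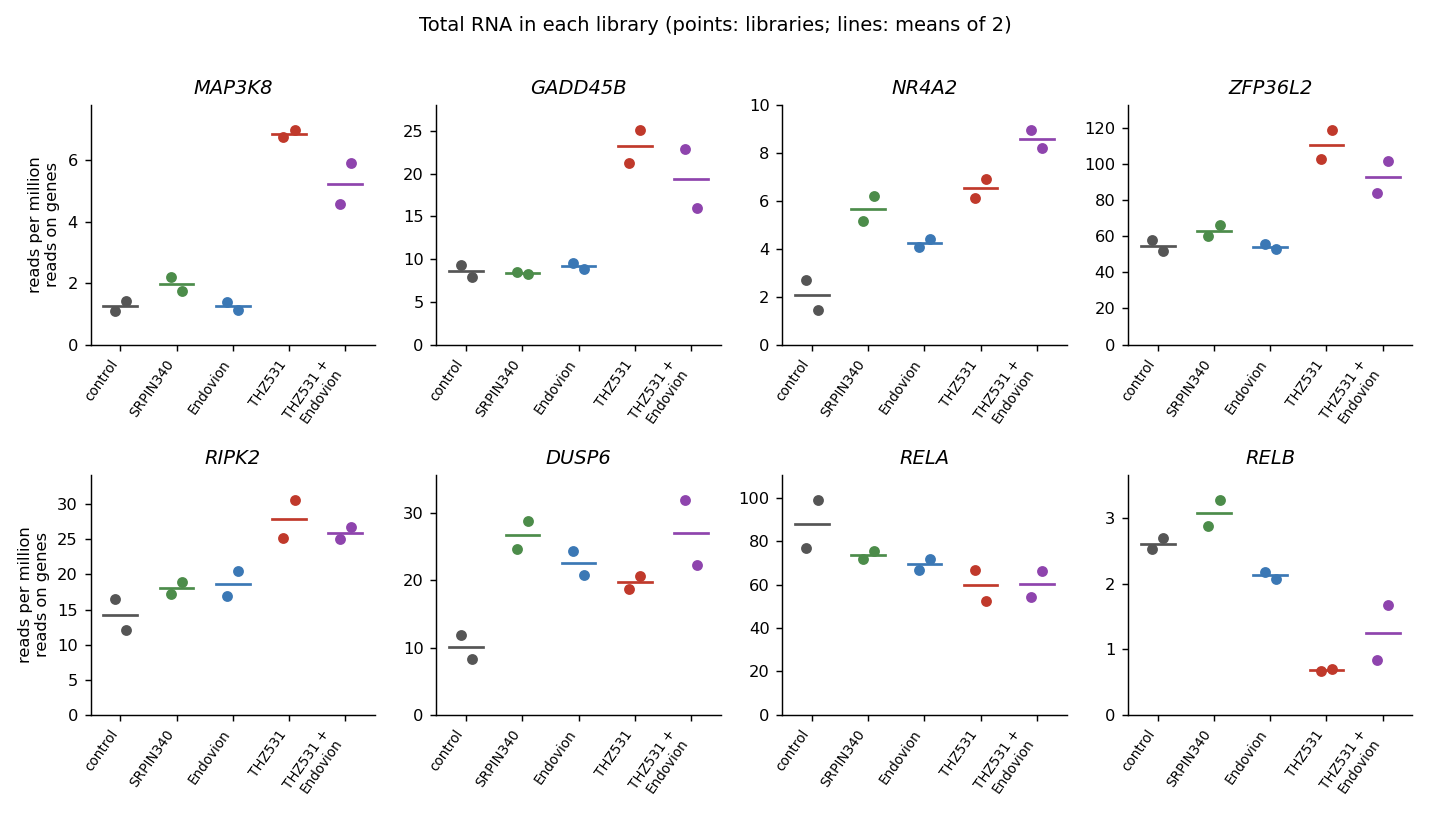
Total RNA of 8 genes, as reads per 1e6 reads on genes (RPM, vertical axes from 0), in the 2 libraries of each group; points are libraries and lines are their means. MAP3K8 and GADD45B were highest in the 4 libraries with THZ531 and RELB was lowest in them, whereas for NR4A2 and DUSP6 every treated library lay above both control libraries.

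The immediate early transcription factors and the MAP kinase phosphatases included genes that were higher with the SRPK1 inhibitors as well as with THZ531. EGR1, a zinc finger factor induced through serum response factor (chr5:138465479-138469303, plus strand), had 281 and 186 reads in the control, 596 and 653 with SRPIN340, 597 and 488 with Endovion, 344 and 351 with THZ531 and 969 and 501 with the combination. Every treated library, at 12.7 to 42.5 RPM, was above both control libraries. The change was 1.27 ± 0.24 with SRPIN340 (adjusted p = 0.0234 by edgeR), 1.39 ± 0.24 with Endovion (0.0038), 0.81 ± 0.24 with THZ531 (0.019) and 1.94 ± 0.24 with the combination (8.5e-05). The first 3 of these calls were lost without control replicate 2, that of SRPIN340 also without either SRPIN340 or either Endovion library, and that of THZ531 without THZ531 replicate 2. The 4 comparisons share both control libraries.

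NR4A2, an orphan nuclear receptor of the early response, had 76 and 34 reads in the control, 138 and 195 with SRPIN340, 107 and 89 with Endovion, 166 and 129 with THZ531 and 204 and 157 with the combination. Both control libraries were the lowest, at 2.71 and 1.43 RPM against 4.09 to 8.95. The change was 1.64 ± 0.29 with THZ531 (adjusted p = 0.000745 by edgeR) and 1.44 ± 0.29 with SRPIN340 (0.0245), the latter lost without control replicate 2, SRPIN340 replicate 2 or either Endovion library. NR4A1 rested on unlike controls, with 32 and 3 reads, against 93 and 156 with THZ531 (3.14 ± 0.84, adjusted p = 0.0273), and its call was lost without control replicate 2, THZ531 replicate 2 or either library of the combination. BCL6, EGR2 and EGR3 did not pass with THZ531 (-0.09 ± 0.14, 0.55 ± 0.40 and -0.94 ± 0.70).

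DUSP6, which inactivates ERK in the cytoplasm (chr12:89347235-89352501, minus strand), had 334 and 198 reads in the control, 662 and 907 with SRPIN340, 637 and 420 with Endovion, 508 and 386 with THZ531 and 728 and 426 with the combination. Its control libraries, at 11.9 and 8.33 RPM, were the lowest of the 10, and the other 8 ranged from 18.7 to 31.9. The change in total RNA was 1.4 ± 0.21 with SRPIN340 (adjusted p = 0.00992 by edgeR), 1.15 ± 0.21 with Endovion (0.00404), 0.96 ± 0.21 with THZ531 (0.00292) and 1.42 ± 0.21 with the combination (0.000195), and the first 3 calls were lost without control replicate 2, that of SRPIN340 also without SRPIN340 replicate 2 and that of Endovion without Endovion replicate 1. DUSP5, a nuclear ERK phosphatase, was sparse in the control, with 4 and 5 reads, and had 33 and 58 with THZ531 and 120 and 44 with the combination (3.57 ± 0.68 with THZ531, adjusted p = 0.00132). DUSP1 and DUSP4 rose with SRPIN340 and did not pass with the other treatments (0.87 ± 0.20, adjusted p = 0.0402, and 0.87 ± 0.17, adjusted p = 0.0245), from 215 and 168 to 327 and 460 reads and from 455 and 366 to 786 and 891. Both calls were lost without control replicate 2 or either library of SRPIN340 or Endovion, and that of DUSP1 also without either library of the combination. A test of SRPIN340 against the other treatments was not run. DUSP2 did not pass with any treatment (0.55 ± 0.34 with THZ531).

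Of the 4 other induced enzymes and receptors, SOD2, the mitochondrial superoxide dismutase, rose from 846 and 672 to 1114 and 935 reads with THZ531 (0.64 ± 0.15, adjusted p = 0.00561 by edgeR), a call lost without control replicate 2 or THZ531 replicate 2. PTGS2 (0.91 ± 0.34), SAT1 (0.51 ± 0.23) and PLAUR (2.89 ± 0.97) did not pass, and PLAUR had 21 and 1 reads in the control.

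The promoters of the list, from 250 bases before to 50 after the gene start (RefSeq, GRCh38.p14; 47 of 57 genes matched), were searched on both strands for sites of the factors of this response. The NF-kappaB motif was found in 14 of the 47 (29.8%), in 10.8% of all 27305 promoters and in 2 of the 11 matched genes that rose in total RNA with THZ531, which were GADD45B and MAP3K8. The windows of NFKBIA, IL6 and MAP3K8 are shown to set matches beside different outcomes. NFKBIA did not pass, IL6 had 0 reads and the internal 3′ end of MAP3K8 rose. BCL3, which was lower in total RNA with THZ531, also held a match, whose window is not shown. The CArG box, the site of serum response factor, had 2 matches in EGR1, both shown, and none in the other matched genes of the list. It was found in 1.29% of all promoters. EGR1 rose with every treatment in total RNA, and so did DUSP6 and NR4A2, all against the same control libraries. The calls of EGR1 and DUSP6 with SRPIN340, Endovion and THZ531 were lost without control replicate 2. So were those of NR4A2 with SRPIN340 and Endovion. The motif is in capitals, 5′ to 3′ on the gene's strand.
NFKBIA, chr14:35404811-35404840, minus strand: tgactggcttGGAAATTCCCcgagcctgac
IL6, chr7:22727117-22727146, plus strand: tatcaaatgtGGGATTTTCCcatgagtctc
MAP3K8, chr10:30433982-30434011, plus strand: ggggagacgcGGAATTTCCCagcgcggggg
EGR1, chr5:138465364-138465393, plus strand: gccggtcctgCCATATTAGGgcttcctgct
EGR1, chr5:138465386-138465415, plus strand: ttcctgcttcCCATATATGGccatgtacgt
The CRE motif TGACGTCA was found in BIRC2 and DUSP1 and in 1.98% of all promoters. These matches describe the letters of the window and say nothing of binding.

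Endovion alone raised 1 of the 33 genes in nascent RNA, BCL10, where 2.04% of all genes tested rose and 0.623% fell. The nascent count was 0 without Endovion replicate 1 and 2 without control replicate 1 or replicate 2 of the combination. In total RNA it raised 5 of 45, BCL10, BIRC2, DUSP6, EGR1 and NR4A2, and lowered none, where 8.9% of all genes rose and 2.53% fell. The calls of EGR1 and DUSP6 are given above, and NR4A2 had 1.02 ± 0.29 (adjusted p = 0.0351 by edgeR), a call lost with only the groups compared in the fit and without control replicate 2, either Endovion library or replicate 1 of the combination. The count in total RNA was 1 without control replicate 2 and 10 without control replicate 1, 2 without Endovion replicate 1 and 3 without Endovion replicate 2. BCL10 was the call kept throughout: its total reads were 215 and 179 in the control and 476 and 303 with Endovion (1.13 ± 0.19, adjusted p = 0.00304 by edgeR). BIRC2, an inhibitor of apoptosis that ubiquitinates RIPK1, had 1294 and 888 against 1426 and 1353 (0.54 ± 0.15, adjusted p = 0.03), a call lost without control replicate 2, either Endovion library or replicate 1 of the combination.

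SRPIN340 raised or lowered none of the 33 genes in nascent RNA by edgeR or DESeq2 at an adjusted p of 0.05, with 3 genes at an unadjusted p under 0.05 (10.4% of all genes), where 0.845% of all genes tested rose and 0.191% fell. Without control replicate 1 it called 1 gene. In total RNA it raised 5 of 45 and lowered none, where 1.82% of all genes rose and 0.143% fell: DUSP1, DUSP4, DUSP6, EGR1 and NR4A2. These calls leaned on single libraries. The count was 10 without control replicate 1, 0 without control replicate 2, 2 without SRPIN340 replicate 1, 0 without SRPIN340 replicate 2 and 1 without either Endovion library, and 0 when all intervals of a gene were summed. Control replicate 2 had a lower RPM than control replicate 1 for all 5 of these genes.

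THZ531 with Endovion raised 4 of the 33 genes in nascent RNA and lowered none, where 4.61% of all genes tested rose and 3.49% fell. They were BCL10, IER5, EGR1 and DUSP6. IER5 had 0.79 ± 0.20 (adjusted p = 0.00651 by edgeR), a call lost without control replicate 1 or replicate 1 of the combination. EGR1 had 53 and 11 T>C reads in the control, 89 and 90 with SRPIN340, 91 and 46 with Endovion, 61 and 58 with THZ531 and 99 and 40 with the combination (1.48 ± 0.42, adjusted p = 0.0225), and the 2 control libraries, at 34.1 and 8.83 RPM, were the lowest of the 10. DUSP6 had 46 and 23 T>C reads in the control, 53 and 60 with SRPIN340, 46 and 36 with Endovion, 37 and 32 with THZ531 and 76 and 51 with the combination (1.24 ± 0.37, adjusted p = 0.0232), and the combination libraries were the highest in RPM. The calls of EGR1 and DUSP6 were both lost without control replicate 2 or replicate 1 of the combination, and without that last library 1 call of the 4 remained, BCL10.

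In total RNA the combination raised 15 of 45 genes and lowered 3, where 16.6% of all genes rose and 12.4% fell. The median of the 45 was 0.28 against 0.00 for all genes. RELB (-1.07 ± 0.38, adjusted p = 0.0448), RELA (-0.54 ± 0.15, 0.0152) and BCL3 (-1.18 ± 0.20, 0.000665) were lower by edgeR, and of these the call of BCL3 was kept with each library left out, that of RELA was lost without control replicate 2 or replicate 1 of the combination, and that of RELB without any of 7 libraries. BCL3 had 207 and 283 reads with the combination, the lowest RPM of any group. DUSP5 (4.41 ± 0.67), NR4A2 (2.04 ± 0.29), MAP3K8 (2.05 ± 0.31), EGR1 (1.94 ± 0.24), DUSP6 (1.42 ± 0.21), BCL10 (1.37 ± 0.19), GADD45B (1.17 ± 0.20), IER5 (0.79 ± 0.13) and ZFP36L2 (0.76 ± 0.13) were higher and kept their calls with each library left out. SOCS3, with 18 and 12 reads, and TNFAIP2, a TNF-induced gene with 115 and 108 reads against 22 and 51 in the control, also passed (adjusted p = 0.0387 and 0.0337), but both calls were lost without either library of the combination, that of SOCS3 also without control replicate 2 or either Endovion library and that of TNFAIP2 without control replicate 1. The other 4 were IER5L (0.64 ± 0.16), ZFP36L1 (0.45 ± 0.12), RIPK2 (0.86 ± 0.18) and SOD2 (0.76 ± 0.15). Of these, IER5L was lost without control replicate 2 or either library of the combination, ZFP36L1 without control replicate 2 or replicate 2 of the combination, RIPK2 without control replicate 2 and SOD2 without replicate 1 of the combination. The count of 18 was 12 without control replicate 2 and 12 without replicate 1 of the combination.

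The direct comparison of the combination with THZ531 alone tested the effect of added Endovion. IER5L fell back in nascent RNA, from 726 and 837 to 373 and 434 RPM (-0.95 ± 0.16, adjusted p = 0.000443 by edgeR), which was 1 gene of the 33 lower and none higher, where 0.181% of all genes fell and 0.141% rose. The call was lost without THZ531 replicate 2 or replicate 1 of the combination and with all intervals of a gene summed. Total RNA of IER5L was also less far above the control with the combination than with THZ531, but did not pass in the direct comparison. Its labelled share was not compared between the combination and THZ531. Whether synthesis of IER5L fell apart from its total RNA was therefore not shown. ZFP36L1 had -0.44 ± 0.17 in nascent RNA and -0.49 ± 0.12 in total RNA, neither of which passed (adjusted p = 0.413 and 0.0722). In total RNA, EGR1 was higher (1.13 ± 0.23, adjusted p = 0.045) and RHOB lower (-0.80 ± 0.16, adjusted p = 0.0404), 1 of 45 each way, where 0.327% of all genes rose and 0.184% fell. With single libraries left out this count ran from 0 to 4, and it was 0 without THZ531 replicate 2, either SRPIN340 library, either Endovion library or replicate 1 of the combination, 1 without THZ531 replicate 1 or replicate 2 of the combination, and 4 without either control library.

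The interaction of THZ531 and Endovion, which asks whether their joint change differs from the sum of the single changes, called none of the genes in nascent or total RNA by edgeR or DESeq2, where 0.302% and 0.00681% of all genes were called. At an unadjusted p under 0.05 there were 3 of 33 genes in nascent RNA (7.7% of all genes) and 10 of 45 in total RNA (13% of all genes). The estimates for IER5L and other single genes were therefore not shown to differ from additivity. Without control replicate 1 it called 1 gene in nascent RNA and 3 in total RNA, all lower than the sum.

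The labelled share, the T>C reads as a percentage of all reads of a gene, was set against its value in the control by the interaction of treatment and read class. No gene of the 33 passed in any of the 4 comparisons by edgeR, with 1 gene at an unadjusted p under 0.05 for SRPIN340, 3 for Endovion, 1 for THZ531 and 4 for the combination, where 8.14%, 9.31%, 10.1% and 12.1% of all genes reached that p and 0.181%, 0.442%, 0.342% and 1.02% passed the adjusted threshold. DESeq2 was not run for the share. With the combination 1 gene was called without control replicate 1. The estimates with THZ531 were -0.21 ± 0.14 for IER5L and 0.06 ± 0.14 for ZFP36L1.

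The shares themselves set these genes apart from each other. Over the 10 libraries summed, the median share of the 33 genes was 5.75%, against 4.89% for all 9946 genes. IER5L had 24.1%, between 19% and 30.3% in single libraries, and 1.05% of all genes had a higher share. ZFP36 had 28.1% on 484 reads, BCL10 15.6% and EGR1 12.8%, whereas RELA had 2.84% and TNIP1, which restrains NF-kappaB, 1.84%. The share of a gene also depends on how many T its reads cover, so per covered T the conversion was 1.77% for IER5L, 0.883% for EGR1 and 0.412% for NFKBIA, against 0.211% to 0.25% over all reads of a library.

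The number of conversions on each T>C read gave a further measure. Over all reads of a library it was between 0.967 and 1.01, and values under 1 show that the deposited conversions and T>C reads were not counted on identical bases. It was 1.27 at the median of the 33 genes and 1.06 at the median of all genes, and 21 of the 33 lay above the upper quartile of all genes, 1.17. DUSP1 had 2.41 conversions for each T>C read, EGR1 2.15, DUSP2 1.90 and GADD45B 1.80, while IER5L, despite its high share, had 1.10 and NFKB2 exactly 1. Values in single libraries moved widely for sparse genes, between 1.22 and 3.54 for DUSP1, and less for IER5L, between 1.06 and 1.16.

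**Figure D4:**
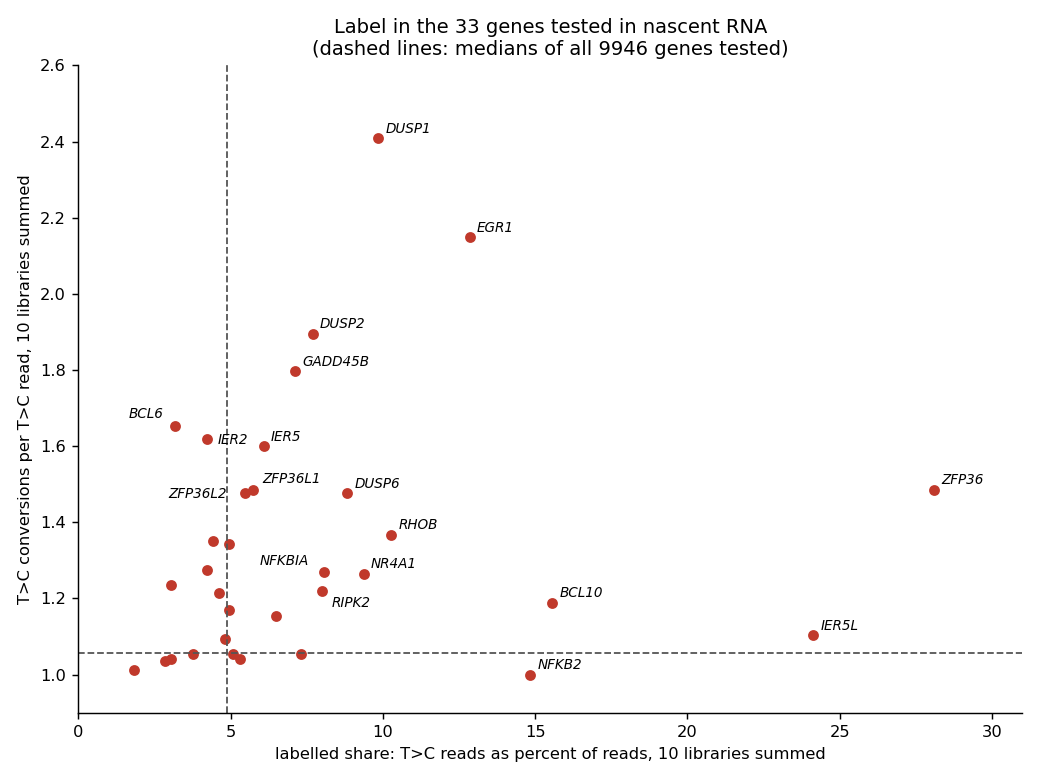
The labelled share (horizontal axis, T>C reads as percent of reads) and the conversions per T>C read (vertical axis) of the 33 genes tested in nascent RNA, each over the 10 libraries summed; dashed lines are the medians of all 9946 genes, 4.89% and 1.06. DUSP1 and EGR1 stood highest in conversions per read, and ZFP36 and IER5L farthest to the right in share.

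Gene length was set beside these changes because the study concerns kinases of elongation and splicing. With THZ531, 4 of 17 genes of the list that span under 10 kb rose in nascent RNA (23.5%), against 3.97% of all 1941 genes of that span, and 1 of 10 that span 10 to 50 kb (10%), against 4.38%. None of the 6 genes over 50 kb was among the calls of edgeR or of DESeq2, with TNFAIP8 at an unadjusted p under 0.05, where 3.22% of all genes of that span rose and 3.48% fell. In total RNA the shares that rose were 36.4% of 22 genes under 10 kb, 35.3% of 17 genes of 10 to 50 kb and 16.7% of 6 genes over 50 kb, against 9.69%, 17.8% and 20.1% of all genes of those spans. The shares of the list that fell in total RNA were 4.55%, 11.8% and 16.7%, in the same order of span. Of all genes of those spans, 16%, 14.6% and 12.3% fell. Over 50 kb, 16.7% is 1 gene of 6 in each direction. BCL10, at 10.9 kb, sits just past the first limit.

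The genes around the list were counted in the same tests. These lists too were chosen with earlier results of these data known, so their counts describe the listed genes only. Of the upstream NF-kappaB pathway (receptors, adaptors and kinases), 3 of 21 tested genes rose and 1 fell in nascent RNA with THZ531, and 5 of 27 rose and 7 fell in total RNA, with a median of -0.01 in total RNA. All genes tested gave 3.86% higher and 3.6% lower in nascent RNA and 16.6% and 14.1% in total RNA, so the share of this list that rose in total RNA was near that of all genes. TAB2, an adaptor of the kinase TAK1, had 1.87 ± 0.33 in nascent RNA (adjusted p = 0.000214 by edgeR), the deubiquitinase OTULIN 2.29 ± 0.65 (0.018) and the receptor TNFRSF1A -1.26 ± 0.30 (0.00374). Of the growth factor and MAP kinase pathway, 3 of 21 rose and 1 fell in nascent RNA and 8 of 24 rose and 2 fell in total RNA. Its smallest p in nascent RNA belonged to CREB1, the factor of the CRE site, at -1.85 ± 0.27 (adjusted p = 3.00e-06 by edgeR), and MAP2K1, a kinase of the ERK cascade, had 2.04 ± 0.46.

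Of 65 other TNF-induced and immediate early genes, 6 of 50 tested rose and none fell in nascent RNA with THZ531, and 30 of 57 rose and 1 fell in total RNA, with medians of 0.37 and 0.74, where all genes gave 3.86% and 3.6% in nascent and 16.6% and 14.1% in total RNA. The 65 genes were chosen with earlier results of these data known, so these counts describe the list and are not independent support. The smallest p in nascent RNA belonged to the AP-1 subunits JUNB (1.20 ± 0.22, adjusted p = 0.000152 by edgeR) and JUN (1.24 ± 0.24, 0.000436). VEGFA, a growth factor, came next (1.08 ± 0.27, adjusted p = 0.00529 by edgeR). With the combination 10 of 50 rose and 2 fell in nascent RNA and 26 of 57 rose and 5 fell in total RNA, where all genes gave 4.61% and 3.49%, and 16.6% and 12.4%. With SRPIN340 1 of 50 rose in nascent and 5 of 57 in total RNA and none fell, where 0.845% and 1.82% of all genes rose and 0.191% and 0.143% fell. With Endovion 3 of 50 rose and 3 fell in nascent RNA, and 12 of 57 rose and 3 fell in total RNA, where all genes gave 2.04% and 0.623%, and 8.9% and 2.53%.

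The methods of the study call a gene at a log2 change of 1 or more in size with p under 0.05 before adjustment. By that threshold THZ531 raised 6 of the 33 genes in nascent RNA and lowered 1, against 5.66% and 6.33% of all genes, and raised 10 of the 45 in total RNA and lowered 1, against 6.94% and 7.86%. The combination gave 6 higher and 1 lower in nascent RNA, against 6.19% and 5.14%, Endovion 3 and 1, against 4.78% and 1.71%, and SRPIN340 2 and 0, against 3.34% and 1.32%. In total RNA the combination gave 10 and 2, against 7.23% and 6.62%, Endovion 8 and 0, against 5.85% and 1.03%, and SRPIN340 7 and 0, against 3.62% and 0.599%. This rule leaves out ZFP36L1 and IER5, whose changes were under 1, although their adjusted p passed.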

How the data were processed

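Nascent and total RNA were measured in 10 SLAM-seq libraries of 22RV1 cells, 2 in each of 5 groups, made with a 3′ end kit with molecular identifiers. The authors called conversions with SLAM-DUNK, and the deposited tables hold counts for each 3′ end interval on hg38, namely of reads, of T>C reads, of T-to-C conversions and of T bases covered. The version and settings of SLAM-DUNK and the use of the identifiers are not given in the sources used here. The submitters' processing notes also name Bowtie2 2.3.4.1, SAMtools 1.6 and DESeq2 1.38.2. T>C reads include sequencing errors, and reads shared by near-identical genes may be lost or split.

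Intervals were named through GENCODE 44, and where intervals of one gene overlapped, that with the highest read count stood for them. The T content of 57437 of 57437 kept intervals equalled that of hg38. Counts were tested in edgeR 4.0.16 (R 4.3.3, quasi-likelihood, TMM, filterByExpr) with all 10 libraries, 5 group means and 5 residual degrees of freedom, and adjusted over all genes by Benjamini-Hochberg. The fits were also run on counts simulated from the count model that edgeR assumes, so departures from that model were not probed. The labelled share was the interaction of treatment and read class with the library as a block. Alternatives were DESeq2 1.42.0 and its size factors, scaling by all reads, no filter, only the groups compared, other handling of intervals, a replicate block and leaving out each library. RPM are reads or T>C reads over their TMM-scaled library sizes. Where libraries are ranked or said not to overlap in RPM, this describes the gene alone. The share of all genes with the same order of libraries was not counted. Nothing says whether replicates came from separate cultures, so p-values measure the spread between these libraries. Replicates of a group differed by more than sampling noise (chi-square per degree of freedom 3.39 to 4.65). Intervals and floors cover counting error only.

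Named genes are those of the list with an adjusted p under 0.05 in nascent RNA with any treatment, given with T>C reads in every library, those passing in total RNA only, and up to 3 genes with the smallest p in each list around it. The list and the lists around it were chosen with earlier results of these data known. A few genes of the marker and surrounding lists are not reported here.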

Additional observations from a re-analysis of the deposited data

How the results depend on the processing

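No called gene reversed its direction under any alternative run. With THZ531 the count of genes called in nascent RNA (5) was 3 with DESeq2, 3 with only the groups compared and 2 with all intervals summed, and 2 to 5 with 1 library left out. For the combination (4) it was 1 with all intervals summed and 1 to 4 with 1 library left out, for Endovion (1) 2 without a filter and 0 to 2, for SRPIN340 (0) 1 without a filter and 0 to 1, for the combination against THZ531 (1) 0 with all intervals summed and 0 to 1, and for the interaction (0) 0 to 1. In total RNA THZ531 (19) ran from 12 to 24 and the combination (18) from 12 to 19 with 1 library left out. Endovion (5) gave 10 without a filter, 10 with DESeq2 and 1 to 10 with 1 library left out. SRPIN340 (5) gave 9 without a filter, 1 with only the groups compared, 0 with all intervals summed and 0 to 10. The combination against THZ531 (2) gave 5 without a filter, 5 with DESeq2, 1 with DESeq2 size factors, 1 with only the groups compared, 0 with all intervals summed and 0 to 4, and the interaction (0) gave 4 without a filter and 0 to 3. The labelled share with the combination (0) gave 1 without a filter and 0 to 1. The cause of these moves was not tested.

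Same-numbered libraries did not deviate together (correlations of -0.07 to 0.06 in nascent and -0.15 to 0.20 in total RNA), so the numbers pair nothing known. With the replicate block the counts in nascent RNA were 2 for Endovion, 1 for SRPIN340 and 6 for THZ531, and in total RNA 21 for THZ531, 17 for the combination and 0 for the combination against THZ531.

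With 2 libraries a group and often under 50 T>C reads a library, many of these genes could not show a modest change in nascent RNA.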
